A study of Triticum aestivum with 2 samples.

Results

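The genes described here are those of the plastid transcription and initiation machinery that the study listed as hybridizing in the antisense assay: the DNA-directed RNA polymerase alpha chain (1 probe set), the DNA-directed RNA polymerase beta chain (4), maturase K (2) and a translation initiation factor (2). They were chosen by putative function from the lists of 110 sense-antisense transcript pairs (4 of them) and 80 potentially antisense-specific transcripts (5 of them), and make up 9 of the 61115 wheat probe sets on the array. Total RNA of the spring wheat 'Chinese Spring', an unmodified hexaploid genotype, was pooled at equal concentrations from 5 tissues: seed germinated in the dark, shoot at the second-leaf stage, flag leaf, and spikes before and after anthesis. This 1 pool was labelled by the Whole Transcript (WT) assay, which reads the antisense strand on this array. It was also labelled by the standard 3'IVT assay, which reads the sense strand. The WT target was primed with random hexamers and the 3'IVT target with oligo(dT), so the assays differ in more than the strand. Each target was hybridized to 1 array. Neither assay was repeated, so the values have no error between samples and no test was made. The pool does not show which tissue a transcript came from, and fewer cells with a transcript cannot be told apart from less of it per cell.

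Plastids keep a bacterial-type RNA polymerase whose core subunits are encoded in the plastid genome, the alpha chain by rpoA and the beta-type chains by rpoB, rpoC1 and rpoC2. This enzyme works with sigma factors that are encoded in the nucleus and transcribes most photosynthesis genes. Maturase K is encoded within the intron of a lysine tRNA gene and is needed for splicing of plastid group II introns. Translation initiation factor genes of plastids resemble their bacterial counterparts, and in grasses the gene infA lies close to those of ribosomal protein S11 and of the polymerase alpha chain.

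All values below are log2 of the deposited signal, given either as such or as the excess over the lowest of the 9 bioB probe sets of the same array. The study also took its lowest bioB probe set as threshold, but on RMA values and together with Present calls. On the signals used here 182 of the 190 listed probe sets were above bioB in the WT assay. Of the 80 antisense-specific ones 7 were above it in the 3'IVT assay. The bacterial gene bioB is spiked in at the detection limit, and its lowest probe set had a log2 signal of 15.19 in the WT assay and 9.69 in the 3'IVT assay. The excess takes out the scaling of each array but not the difference in priming and labelling. An excess in 1 assay is therefore not an amount that can be set against the other assay as abundance. The median wheat probe set lay 7.18 log2 units under the bioB level in the WT assay and 3.07 under it in the 3'IVT assay. Spike-in probe sets that read 1 and the same control region had a pooled SD of 0.26 in the WT assay and 0.32 in the 3'IVT assay (27 probe sets, 9 regions), and their WT minus 3'IVT difference had an SD of 0.20. Probe sets also differ in how strongly they bind their targets, which this SD does not cover, so signals of different probe sets are given side by side and do not order transcripts by level. The 6 probe sets fixed as markers of green tissue, for the RUBISCO small subunit, RUBISCO activase, carbonic anhydrase and the chlorophyll a/b binding protein, were above bioB in both assays. Their excesses were 0.49 to 1.63 in the WT assay and 4.48 to 5.87 in the 3'IVT assay. All 6 stand in the study's list of pairs, which required signal over bioB in both assays, so this follows in part from the choice.

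In the WT assay all 9 probe sets were above bioB, where 0.367% of all wheat probe sets were, and in the 3'IVT assay 4 of the 9 were, where 17.3% of all were. The study selected the 9 by WT signal and split them between its lists by 3'IVT signal. These counts therefore describe the choice and support nothing further. Above both thresholds were 4 (0.208% of all wheat probe sets), 5 were above in the WT assay alone (0.159%) and none in the 3'IVT assay alone (17.1%). The median excess was 2.78 in the WT assay, with a range of 1.02 to 4.02, and -0.05 in the 3'IVT assay, with a range of -1.27 to 2.92. Of 64 probe sets that read reporter genes foreign to wheat, 63 had a WT signal under the lowest probe set of the spike-in cre and were taken as background. The highest of the 63 had a log2 signal of 11.76 in the WT assay and 7.02 in the 3'IVT assay. All 9 lay above it in both assays, which in the WT assay follows from the choice by WT signal. In the 3'IVT assay it follows in part for the 4 in the list of pairs, which was also chosen by 3'IVT signal. Against this lower background 3.26% of all wheat probe sets were above in the WT assay and 44.9% in the 3'IVT assay. The sense-strand signals of these genes thus lay over the reporter background and around the bioB level.

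**Figure D1:**
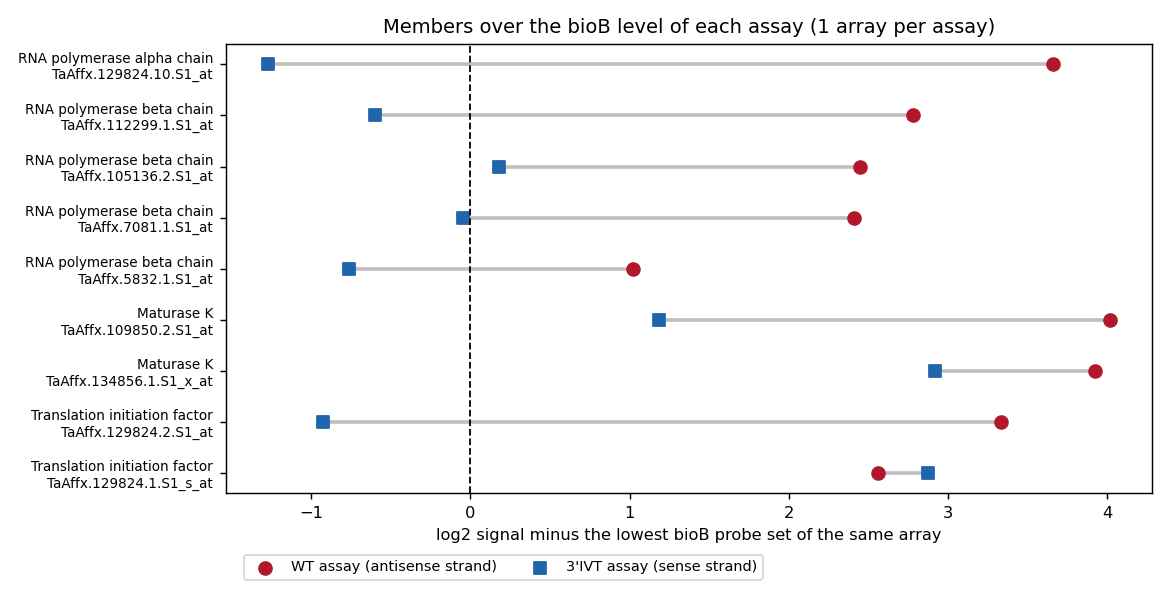
Excess over the lowest bioB probe set (x axis, log2 units) for the 9 probe sets, with the WT assay as red circles and the 3'IVT assay as blue squares, 1 array each, joined by a grey line; the dashed line at 0 is the bioB level. WT values run from 1.02 to 4.02 and 3'IVT values from -1.27 to 2.92, and only the initiation factor probe set TaAffx.129824.1.S1_s_at has the higher excess in the 3'IVT assay.

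The alpha chain is the scaffold on which the polymerase core assembles. Its probe set TaAffx.129824.10.S1_at had a log2 signal of 18.85 in the WT assay and 8.42 in the 3'IVT assay. These are excesses of 3.66, or 12.6 times the bioB signal, and of -1.27, or 0.414 times. Its WT minus 3'IVT difference of excesses, 4.93, was the largest of the 9.

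The beta chain, part of the catalytic centre, was read by 4 probe sets from 4 different design clusters, the groups of related sequences that Affymetrix numbers together. TaAffx.112299.1.S1_at had log2 signals of 17.97 in the WT assay and 9.09 in the 3'IVT assay, with excesses of 2.78 and -0.60. TaAffx.105136.2.S1_at, the only polymerase probe set in the list of transcript pairs, had 17.63 in the WT assay and 9.88 in the 3'IVT assay, with excesses of 2.45 and 0.18. TaAffx.7081.1.S1_at had 17.59 in the WT assay and 9.65 in the 3'IVT assay, with excesses of 2.41 and -0.05. The 3'IVT excesses of both lay closer to the threshold than the spike-in SD of 0.32 in that assay, although the study's lists place them apart. TaAffx.5832.1.S1_at had 16.21 in the WT assay and 8.93 in the 3'IVT assay, with excesses of 1.02 and -0.76. At all 4 the excess was higher in the WT assay, by 1.78 to 3.38. The files give the putative function only as beta chain, and which of the beta-type subunits each probe set reads was not settled here.

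Maturase K was above bioB in both assays at both of its probe sets. Both stand in the list of pairs, which required signal over bioB in both assays, so this follows in part from the choice. TaAffx.109850.2.S1_at had log2 signals of 19.21 in the WT assay and 10.88 in the 3'IVT assay, 16.2 and 2.27 times the bioB signal. TaAffx.134856.1.S1_x_at had 19.11 in the WT assay and 12.61 in the 3'IVT assay, 15.1 and 7.56 times the bioB signal. The WT minus 3'IVT difference of excesses was 2.84 at TaAffx.109850.2.S1_at and 1.00 at TaAffx.134856.1.S1_x_at. The name of TaAffx.134856.1.S1_x_at ends in _x_at, by which Affymetrix marks probes that can also match other sequences.

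The translation initiation factor was read by 2 probe sets of design cluster TaAffx.129824, the cluster that also holds the alpha chain. TaAffx.129824.1.S1_s_at had log2 signals of 17.75 in the WT assay and 12.56 in the 3'IVT assay, with excesses of 2.56 and 2.87. TaAffx.129824.2.S1_at had 18.52 in the WT assay and 8.77 in the 3'IVT assay, with excesses of 3.33 and -0.93. The first of them stands in the list of pairs, TaAffx.129824.2.S1_at in the antisense-specific list. By strand-specific RT-PCR the study detected both strands of TaAffx.129824.1 in every tissue of the pool. The difference TaAffx.129824.2.S1_at minus TaAffx.129824.1.S1_s_at was 0.77 log2 units in the WT assay and -3.80 in the 3'IVT assay, so this difference changed sign between the assays. The study split its lists by 3'IVT signal, so the 3'IVT side follows in part from the choice. The suffix _s_at of TaAffx.129824.1.S1_s_at means that its probes match more than 1 transcript.

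Both probe sets with a shared suffix, TaAffx.134856.1.S1_x_at and TaAffx.129824.1.S1_s_at, had 3'IVT excesses of 2.92 and 2.87, while those of the other 7 ran from -1.27 to 1.18. Of those 7, 2 were above bioB in the 3'IVT assay (17.3% of all wheat probe sets). These 2 and both with a shared suffix stand in the list of pairs, chosen also by 3'IVT signal. The other 5 stand in the antisense-specific list, so the contrast follows in part from the choice. Over the array 20.8% of wheat probe sets carry such a suffix. None of the 9 names carries the letter A, with which Affymetrix marks a design sequence taken as antisense, and which 17.4% of wheat probe sets carry. The name does not settle the orientation of the probes. The study cautions that its antisense-specific list, which holds 5 of the 9, may include incorrectly oriented probes, and this was not tested here.

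The excess over bioB was higher in the WT assay than in the 3'IVT assay for 8 of the 9 probe sets, where 8.89% of all wheat probe sets showed this; the choice by WT signal sets this count in part. The median difference was 2.46, with a range of -0.31 to 4.93, and over all wheat probe sets it was -4.46. The study split its lists by 3'IVT signal, so the 9 are set beside each list by itself. The 4 members in the list of pairs had a median difference of 1.63, and all 110 probe sets of that list, these included, had -0.93. The 5 in the antisense-specific list had 3.38, and all 80 of that list 3.93. The median difference of the members was thus above that of the 1 list and below that of the other. Of the 5, TaAffx.129824.10.S1_at (4.93) and TaAffx.129824.2.S1_at (4.26) lay above the median of the antisense-specific list. These differences were not tested.

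**Figure D2:**
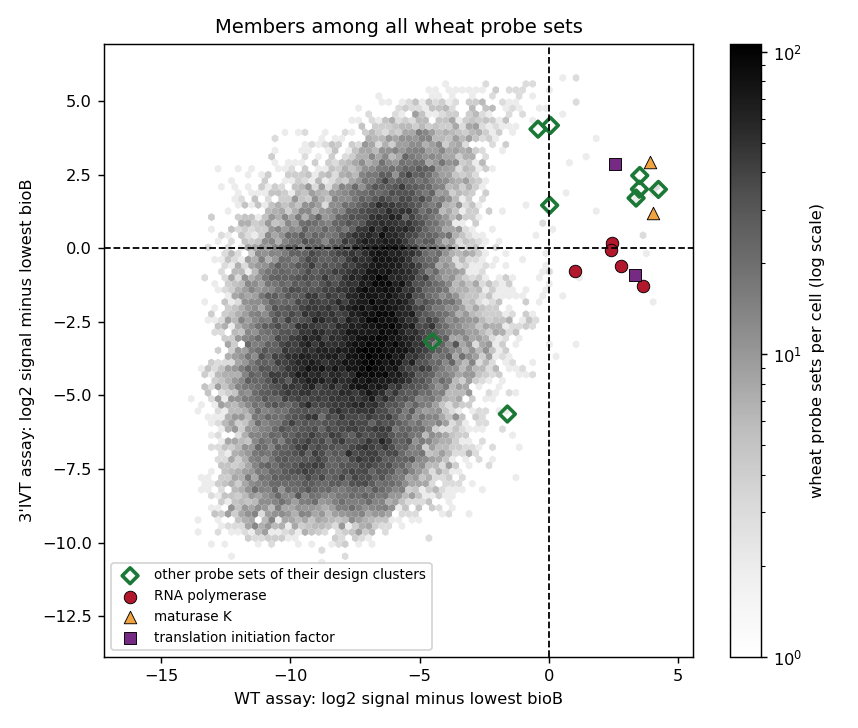
Each wheat probe set by its excess over bioB in the WT assay (x axis) and in the 3'IVT assay (y axis), both in log2 units; the grey scale counts the 61115 probe sets per cell, filled symbols are the 9 members and green diamonds the other 9 probe sets of their design clusters. All 9 members lie right of the vertical bioB line, 4 of them above the horizontal one.

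A further 9 wheat probe sets share a design cluster with 1 of the 9, and the study's lists hold 4 of them. Probe sets of a cluster come from related sequences but need not read the same transcript or the same part of it. Of these relatives 6 were above bioB in the WT assay (0.367% of all wheat probe sets) and 7 in the 3'IVT assay (17.3%), all 6 in both (0.208%). The 4 listed ones were selected by the study for signal in both assays and the unlisted ones did not pass, so these counts follow in part from the selection. Their median excess was 0.06 in the WT assay, with a range of -4.50 to 4.24, and 2.00 in the 3'IVT assay, with a range of -5.63 to 4.17. Both medians change sign with the processing: the WT median was -0.90 and -1.35 with the median and the highest bioB probe set as threshold, -0.79 without shared probe sets and -0.42 for unlisted relatives alone, and the 3'IVT median was -0.86 without shared probe sets. Of the 5 that neither list holds, 2 were above bioB in the WT assay, by 0.03 and 0.06, and 3 in the 3'IVT assay.

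In the clusters of beta chain TaAffx.105136.2.S1_at and of maturase K TaAffx.109850.2.S1_at the difference between member and relative had opposite signs in the 2 assays. The members were listed for their WT signal and neither relative stands in the lists, so the WT side of these differences follows in part from the choice. TaAffx.105136.1.S1_at had log2 signals of 15.25 in the WT assay and 13.86 in the 3'IVT assay, excesses of 0.06 and 4.17, or 1.04 and 18.0 times the bioB signal. Member minus relative was 2.39 log2 units in the WT assay and -3.99 in the 3'IVT assay. TaAffx.109850.1.A1_s_at had 14.77 in the WT assay and 13.73 in the 3'IVT assay, with excesses of -0.42 and 4.04. Here member minus relative was 4.44 in the WT assay and -2.86 in the 3'IVT assay. The name of the maturase K relative carries the letter A and a shared suffix, that of the beta chain relative neither. In the remaining maturase K cluster the relative is itself listed, as unknown: TaAffx.134856.3.S1_s_at had 19.42 in the WT assay and 11.69 in the 3'IVT assay, excesses of 4.24 and 2.00 beside 3.92 and 2.92 for TaAffx.134856.1.S1_x_at. The clusters of TaAffx.112299.1.S1_at, TaAffx.5832.1.S1_at and TaAffx.7081.1.S1_at hold no other wheat probe set.

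**Figure D3:**
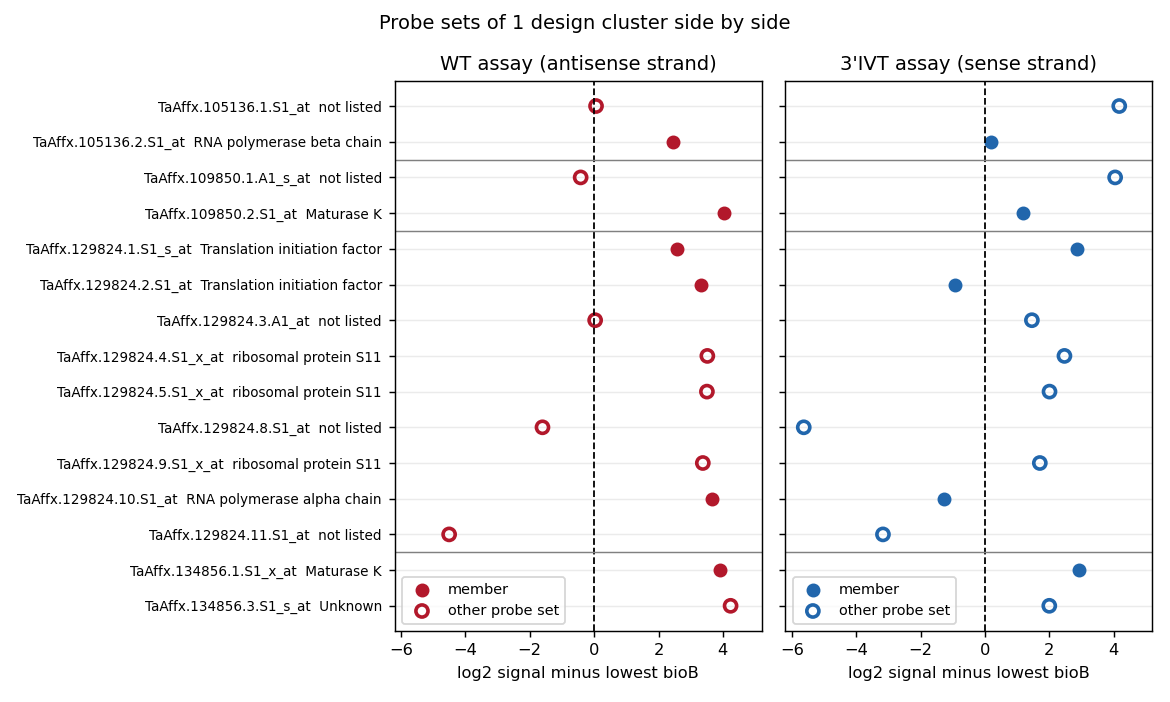
Excess over bioB (x axis, log2 units) of the probe sets of the 4 design clusters that hold more than 1, in the WT assay (left) and the 3'IVT assay (right); filled circles are members, open circles the other probe sets, and grey lines part the clusters. In clusters TaAffx.105136 and TaAffx.109850 the member, chosen for its WT signal, lies right of the other probe set in the WT assay and left of it in the 3'IVT assay.

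Cluster TaAffx.129824 had 9 probe sets. Of them 7 were above bioB in the WT assay (0.367% of all wheat probe sets) and 5 in the 3'IVT assay (17.3%). The study's lists hold 6 of the 9, so these counts follow in part from the choice. The 3 for ribosomal protein S11, a component of the small plastid ribosomal subunit, had log2 signals of 18.56 to 18.70 in the WT assay and excesses of 3.38 to 3.52. In the 3'IVT assay their excesses were 1.70 to 2.47, whereas the alpha chain and TaAffx.129824.2.S1_at were at -1.27 and -0.93. The S11 probe sets stand in the list of pairs, the alpha chain and TaAffx.129824.2.S1_at in the antisense-specific list. The study split these lists by 3'IVT signal, so the 3'IVT contrast follows in part from the choice. The 6 listed probe sets of the cluster spanned 1.10 log2 units in the WT assay and 4.14 in the 3'IVT assay, but listing required a high WT signal, which narrows the WT span. Over all 9 of the cluster the spans were 8.16 and 8.50. The other 3 stand in neither list, so lower WT values follow from the choice. TaAffx.129824.3.A1_at had excesses of 0.03 in the WT assay and 1.46 in the 3'IVT assay, TaAffx.129824.8.S1_at had -1.60 and -5.63, and TaAffx.129824.11.S1_at had -4.50 and -3.17.

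The other listed genes of plastid gene expression were 22 probe sets of chloroplast ribosomal proteins. All 22 were above bioB in the WT assay (0.367% of all wheat probe sets), by a median of 3.10 with a range of 0.53 to 4.37. In the 3'IVT assay 21 were (17.3%), with a median of 1.77 over the 22 and a range of -0.04 to 5.99. The WT excess was the higher one for 13 of the 22 (8.89% of all wheat probe sets), with a median difference of 0.96 and a range of -5.45 to 3.56. Of the 22, 3 are the S11 probe sets of the alpha chain's cluster; without them the WT excess was higher for 10 of 19, with a median difference of 0.11. The 15 of the small subunit had a median difference of 1.50 and the 7 of the large subunit -0.50. The WT excesses ran between those of S15 (TaAffx.128617.18.S1_x_at, 4.37) and S7 (TaAffx.3720.1.S1_at, 0.53), and the 3'IVT log2 signal of S7 was 15.68. Protein S2 (TaAffx.128946.1.A1_at), with excesses of 3.52 in the WT assay and -0.04 in the 3'IVT assay, was the only one of the 22 above bioB in the WT assay alone, as 5 of the 9 described here were. These shares were not tested, since the study's selection set them in part.

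Under transcription, the lists as used here gave 4 further probe sets, with WT excesses of -0.09 to 0.59. A zinc finger protein (TaAffx.143996.1.S1_s_at) had excesses of 0.59 in the WT assay and 2.64 in the 3'IVT assay. MatR protein (TaAffx.57297.1.S1_at), the maturase of plant mitochondria, had 0.43 in the WT assay and -3.55 in the 3'IVT assay. A nucleic acid binding protein (Ta.7467.3.S1_s_at) had 0.23 and -3.01, and the stress-responsive zinc-finger protein ISAP1 (Ta.28276.3.A1_at) -0.09 and -1.18.

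The array annotation named no plastid polymerase, sigma factor, phage-type polymerase or polymerase-associated protein among the probe sets with a gene symbol, and gave 3 translation initiation factors of the cytosol, which are encoded in the nucleus. All 3 were above bioB in the 3'IVT assay (17.3% of all wheat probe sets) and none in the WT assay (0.367%). The cap-binding factor eIF4E (Ta.14707.1.S1_at) had excesses of -6.07 in the WT assay and 2.03 in the 3'IVT assay. The beta subunit of eIF2, which brings the initiator tRNA (Ta.165.1.S1_at), had -4.84 and 1.87, and eIF4B, a helper of the cap-binding complex (Ta.239.1.S1_at), had -7.22 and 2.76. These 3 were taken from the annotation, whereas the initiation factor probe sets described above were listed for their WT signal, so the WT values of the 2 sets differ by the choice and are not compared.

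**Figure D4:**
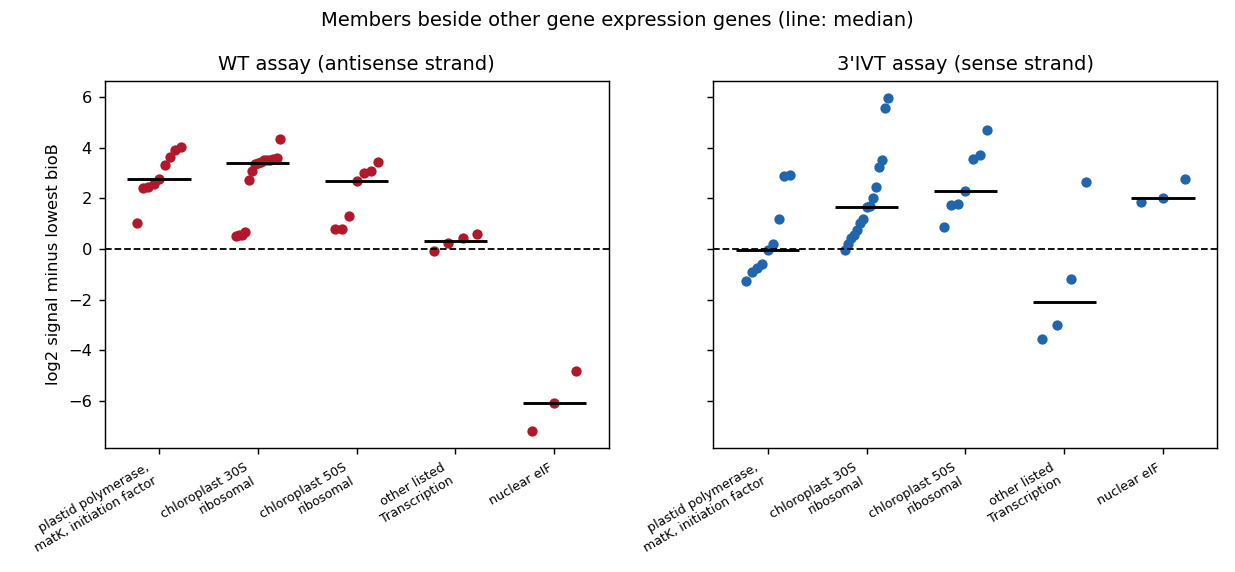
Excess over bioB (y axis, log2 units) in the WT assay (left) and the 3'IVT assay (right) for the 9 members, 15 chloroplast 30S and 7 chloroplast 50S ribosomal protein probe sets, 4 other listed probe sets of transcription and 3 nuclear eIF probe sets; points are probe sets, the bar is the median and the dashed line the bioB level. The members have medians of 2.78 and -0.05, and the nuclear factors, which were not chosen by WT signal, of -6.07 and 2.03.

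The wheat probe sets nearest to the median point of the 9, by the Euclidean distance over the 2 excesses, were TaAffx.26876.1.S1_at of unknown function (distance 0.32), TaAffx.135168.3.S1_s_at of unknown function (0.66), an ATP synthase (TaAffx.7291.1.S1_at, 0.67), chloroplast ribosomal protein S18 (TaAffx.107897.1.S1_at, 0.70) and TaAffx.3720.10.S1_at of unknown function (0.73). The likeness rests on 1 value per assay. All 5 stand in the study's lists, with WT excesses of 2.51 to 3.49 and 3'IVT excesses of -0.70 to 0.20. On the deposited signals the listed probe sets just under the WT threshold were ISAP1 at -0.09 and TaAffx.28490.2.S1_s_at at -0.05, and those just over it TaAffx.27716.1.S1_x_at at 0.02 and Ta.645.3.A1_x_at at 0.14. Around the 3'IVT threshold they were TaAffx.107837.1.S1_at and TaAffx.128946.1.A1_at, both at -0.04, and TaAffx.81858.1.S1_at and TaAffx.26876.1.S1_at at 0.06 and 0.12. Among the 9 the nearest to the WT threshold was TaAffx.5832.1.S1_at, 1.02 above it. The bioB probe sets themselves ran from 15.19 to 16.6 in the WT assay, with a median of 16.14. At a log2 signal of 16.21 this member was above that median but under the highest. With the highest bioB probe set as threshold 8 of the 9 were above in the WT assay.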

How the data were processed

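RNA from 5 pooled tissues was read on 2 Wheat Genome Arrays, 1 per assay. For each array the deposited table gives the MAS5 signal intensity of every probe set, as the submitters' processing notes name the authors' method. Each array was scaled on its own, with 2% trimmed means of 500.2 (WT assay) and 500.3 (3'IVT assay). The study's own lists used RMA values with Present calls, which were not used here. From the intensities log2 was taken, without normalization between arrays, and the lowest bioB probe set was subtracted. Counts leave out 111 Affymetrix controls and 64 reporter gene probe sets. The number of arrays limits the precision, and no p-value was computed.

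Members were found by putative function in the study's lists, relatives by the design cluster number, and list genes by the array annotation (1273 probe sets with a symbol, 1272 matched to RefSeq identifiers of IWGSC CS RefSeq v2.1, none of them a member). Named were all members and relatives, the other genes of transcription, extremes of the ribosomal list, annotated initiation factors, the 5 nearest probe sets, and listed probe sets at the thresholds. Members and lists were chosen with earlier results of these data known. Alternatives were other bioB thresholds, quantile normalization, leaving out shared probe sets, counting clusters once, a filter on low signals, the array median as yardstick and, added after seeing the data, only unlisted relatives. The counting steps were tested on simulated data. Python 3.11.15 was used, with pandas 2.3.3, numpy 2.4.6 and matplotlib 3.10.9.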

Additional observations from a re-analysis of the deposited data

How the results depend on the processing

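No paired analysis was possible because each assay had 1 array. With no replicates, depth was not known beyond signal over bioB, and a value was taken as moved when it changed by more than the spike-in SD, or a count by more than 1.5 times. Of 58 values recomputed, 25 stayed within these limits, 26 moved and 7 changed sign, most of them medians close to 0. The WT count of the 9 members stayed between 7 and 9 under every alternative run, where 7 is all that is left without shared probe sets or with each design cluster counted once.

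With the median bioB probe set as threshold the members' median excess was 1.83 (WT assay) and -0.48 (3'IVT assay) and the median difference 1.94, and the relatives' medians were -0.90 and 1.56. With the highest bioB probe set these were 1.37, -0.89, 1.89, -1.35 and 1.16. Quantile normalization gave 1.69 for the members in the WT assay and a difference of 1.43. Without shared probe sets 2 members were above bioB in the 3'IVT assay and 2 in both, their 3'IVT median was -0.60 and the difference 2.84; 2 relatives were above bioB in the WT assay and 2 in the 3'IVT assay, at medians of -0.79 and -0.86. With each design cluster counted once the members' 3'IVT median was 0.18, and 3 clusters of relatives were above bioB in the WT assay and 3 in the 3'IVT assay, at medians of 0.39 and 3.02. Unlisted relatives alone gave 2 above bioB in the WT assay and 3 in the 3'IVT assay, at medians of -0.42 and 1.46. These shifts follow from the altered threshold, scale or set of probe sets. Over the median wheat probe set the members' medians were 9.96 (WT assay) and 3.02 (3'IVT assay), and with a filter on low signals 0.733% and 33.9% of wheat probe sets were above bioB.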
